A study of Homo sapiens with 97 samples.

Results

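The KDEL construct places the peroxidase APEX2 in the lumen of the endoplasmic reticulum (ER) of HEK293T cells, a human embryonic kidney line. It was represented by 4 of the 97 libraries of the series. They were taken by their labels: 2 libraries of labelled cells and 2 of unlabelled cells. Labelled cells stably expressing the construct received biotin-phenol for 30 min and then 1 mM hydrogen peroxide for 1 min, which drives the peroxidase to tag nearby molecules with biotin. Unlabelled cells expressed the same construct and went through the same steps without peroxide. Biotin-tagged RNA was enriched and the poly(A) fraction was sequenced. Constructs on the cytosolic face of the ER membrane (ERM) and in the cytosol (NES), each with 2 labelled and 2 unlabelled libraries of untreated cells, served for comparison. A nuclear construct (NLS) was used for description. The labels do not say how many independent lines carried a construct, and they call the libraries of a group biological replicates.

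Proteins that enter the secretory pathway are made by ribosomes docked on the outer face of the ER, and the growing chain passes through the SEC61 channel into the lumen. The messenger RNA and the ribosome stay in the cytosol. Soluble lumenal proteins are kept in the ER by a short tail, most often Lys-Asp-Glu-Leu (KDEL in single letters), that Golgi receptors recognise and return. The lumen is closed by a membrane, so a lumenal peroxidase faces the proteins of secretory transcripts and not the transcripts themselves. The question put to the data was how large an enrichment of ER-translated transcripts the 4 libraries allow.

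The 4 libraries held 25616317 and 34540551 counts in labelled cells and 26920688 and 46477147 counts in unlabelled cells. At least 1 count was found for 22284 and 22915 genes in the labelled libraries, and for 23432 and 17590 genes in the unlabelled ones. Unlabelled library 1 was thus above all 16 unlabelled libraries of the other constructs, which ranged from 14316 to 20409 genes with a median of 17099.5. Unlabelled library 2, the deepest of the 4, was inside that range. The 16 labelled libraries of the other constructs ranged from 13470 to 23189 genes, so unlabelled library 1 was above those as well. Of the 10 genes taken as marks of HEK293T cells, 9 were at 1 CPM (a count scaled to library size) or more in all 4 libraries, VIM and CDH2 among them. PAX2 had no count in unlabelled library 2. Of 18 marks of other cell types, 11 had no count in any of the 4, PTPRC, HBB and INS among them, and the summed level of the list was 5.08 and 3.99 CPM in labelled cells and 4.04 and 4.55 CPM in unlabelled cells.

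Labelling in the ER lumen left no gene past the threshold. By edgeR's quasi-likelihood test, 0 of 22680 genes had a Benjamini-Hochberg adjusted p under 0.05 (0% higher, 0% lower). The test was fitted to all 36 poly(A) libraries of the 9 constructs. At an unadjusted p under 0.05 there were 39 higher genes (0.172%) and 7 lower ones (0.0309%), 46 in all (0.203%). In bulk samples fewer cells and less RNA per cell cannot be told apart. DESeq2 also called 0 genes, with 59 at an unadjusted p under 0.05. With the 4 libraries fitted alone, again 0 of 17384 genes were called, and 463 (2.66%) were higher and 281 (1.62%) lower at an unadjusted p under 0.05. The same model called 1193 genes higher (5.26%) and 1724 lower (7.6%) with ERM. It called 313 higher (1.38%) and 567 lower (2.5%) with NES. With the nuclear pore construct it also called 0, although 1209 genes that averaged 5 CPM or more were past 2-fold there. A count of 0 was thus not particular to the lumen.

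A few calls appeared when 1 library was left out. Without unlabelled library 2, 16 genes were called, and without labelled library 1, 11 were. Without labelled library 2 or without unlabelled library 1, 1 gene was called. None of these genes was a member of the secretory lists described below. In all 4 cases the calls included XIST, a nuclear noncoding RNA that coats an X chromosome, whose log2 fold change over all 4 libraries was 0.97 ± 0.26 (SE) with an adjusted p of 1 by edgeR. Of the others, 13 without unlabelled library 2 and 10 without labelled library 1 were mitochondrial messenger RNAs.

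Labelled and unlabelled libraries differed from each other about as much as replicates did. The measure was the median absolute log2 ratio over the 11829 genes that averaged 5 CPM or more across the 36 libraries. Labelled libraries 1 and 2 differed from unlabelled library 1 by 0.19 and 0.16, and from unlabelled library 2 by 0.24 and 0.23. The ratio was 0.21 between the 2 labelled libraries and 0.20 between the 2 unlabelled ones. Unlabelled library 1 was thus nearer to each labelled library than to its own replicate. For ERM the 4 pairs of a labelled with an unlabelled library lay at 0.72 to 0.88, above the 0.47 of its labelled and the 0.33 of its unlabelled replicates. The log2 fold changes of these genes had an SD of 0.29 with KDEL and 1.34 with ERM, and 117 of them (0.989%) were past 2-fold with KDEL against 4254 with ERM. Fold changes of the first KDEL pair (labelled 1 over unlabelled 1) and the second were nearly unrelated across these genes, with Pearson's r of 0.11 and Spearman's rho of 0.03. The value is a description, since genes are not independent replicates.

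**Figure D1:**
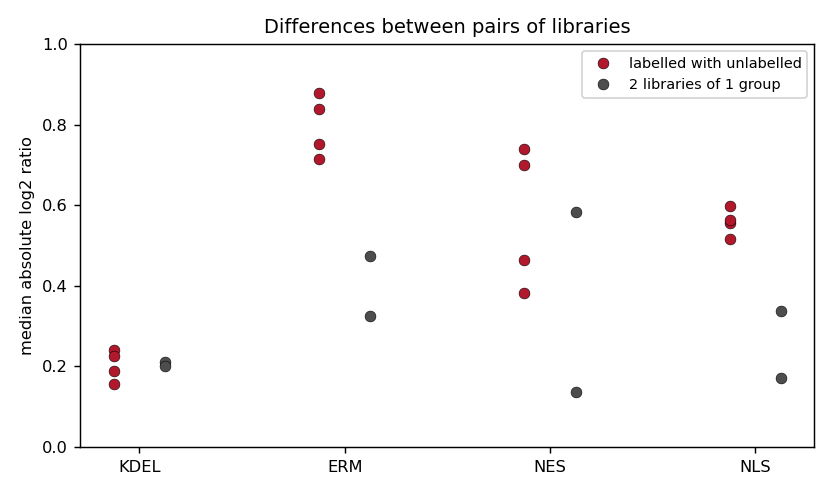
Median absolute log2 ratio (y axis) between 2 libraries over 11829 genes of at least 5 CPM, for each pair of libraries of the KDEL, ERM, NES and NLS constructs; red points pair a labelled with an unlabelled library, grey points pair 2 libraries of 1 group. KDEL pairs of both kinds lie between 0.16 and 0.24, whereas red ERM points lie above the grey ones.

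The chaperones and folding enzymes of the lumen are the proteins that share the compartment with this peroxidase. Many of them carry the retention tail that the construct is named for. The last 27 bases of their coding sequences are shown because they encode that tail in the transcripts whose labelling is bounded here. They are from GENCODE 29 on GRCh38, 5′ to 3′ on the coding strand, with the 4 retention codons in capitals before the stop codon.
HSPA5 (KDEL, chr9:125236592-125236618, minus strand): gatacagcagaaAAAGATGAGTTGtag
HSP90B1 (KDEL, chr12:103947636-103947662, plus strand): tctacagctgaaAAAGATGAATTGtaa
CALR (KDEL, chr19:12943887-12943913, plus strand): cccggccaggccAAGGACGAGCTGtag
P4HB (KDEL, chr17:81844012-81844038, minus strand): cagaaagctgtgAAAGATGAACTGtaa
PDIA6 (KDEL, chr2:10784258-10784284, minus strand): gatgacttagggAAAGATGAGTTGtga
PRKCSH (HDEL, chr19:11449386-11449412, plus strand): accgaagacgacCATGACGAGCTCtag
SERPINH1 (RDEL, chr11:75572057-75572083, plus strand): ggtgacaagatgCGAGACGAGTTAtag
Among the 19562 coding genes read, 11 ended in KDEL, 12 in HDEL and 6 in RDEL. The same 4 amino acids are spelled with different codons, such as AAAGATGAGTTG in HSPA5 and AAGGACGAGCTG in CALR.

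HSPA5, the lumenal Hsp70 chaperone BiP, had 925 and 942 CPM in labelled cells and 988 and 911 CPM in unlabelled cells. The groups overlapped. Its log2 fold change was -0.02 ± 0.19 (SE) with a 95% interval from -0.40 to 0.35, so the upper limit stood at 1.28-fold. HSP90B1, the lumenal Hsp90 chaperone, had 866 and 1080 CPM in labelled cells and 1100 and 1068 CPM in unlabelled cells. The log2 fold change of HSP90B1 was -0.16 ± 0.15 and its upper limit 1.11-fold. CALR encodes calreticulin, a calcium-binding lectin that holds glycoproteins during folding. It had 887 and 844 CPM in labelled cells, both under the 1024 and 952 CPM of unlabelled cells. Its log2 fold change of -0.19 ± 0.18 had an upper limit of 1.12-fold, and the adjusted p was 1 by edgeR, as for every gene of this comparison that is named.

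The protein disulfide isomerases, which form and rearrange disulfide bonds, gave the same picture. P4HB had 691 and 650 CPM in labelled cells and 740 and 722 CPM in unlabelled cells, with a log2 fold change of -0.12 ± 0.16 and an upper limit of 1.15-fold. PDIA6 had 529 and 513 CPM in labelled cells and 626 and 586 CPM in unlabelled cells, and an upper limit of 1.08-fold. In both genes the labelled libraries lay under the unlabelled ones, by less than the test could call. PDIA3, PDIA4 and the prolyl isomerase PPIB had log2 fold changes of -0.07, -0.13 and -0.18 and upper limits of 1.24-fold, 1.19-fold and 1.18-fold. CALU, a lumenal calcium-binding protein of the CREC family, had an upper limit of 1.24-fold. CANX, the membrane-bound relative of calreticulin, had 1031 and 1293 CPM in labelled cells and 1335 and 1274 CPM in unlabelled cells, with an upper limit of 1.12-fold.

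The ER folding list held 71 genes, and all 71 were tested. In the model of 36 libraries 0 were called in either direction and 0 passed an unadjusted p under 0.05. With the 4 KDEL libraries fitted alone, 0 were higher and 4 lower at that p (2.66% and 1.62% over all genes), and 0 were called. The median log2 fold change of the list was -0.16, beside 0.04 over all 22680 genes and -0.01 over those of at least 5 CPM, and 11 of 71 were above 0. An upper limit under 2-fold was reached by 63 of the 71 and one under 1.5-fold by 50. Over all genes tested the share with an upper limit under 2-fold was 32%. It was 55.1% over genes of at least 5 CPM, where 28.2% were under 1.5-fold. The 32% also counts low genes with a fold change of 0, whose SE is 0 by the formula used. Among members that averaged 20 CPM or more the highest values were 0.23 ± 0.47 for CRELD2, a disulfide isomerase induced by ER stress, and 0.11 ± 0.39 for ERO1B, an oxidase that recharges disulfide isomerases. The lowest were -0.44 ± 0.29 for ERP29, a lumenal chaperone related to disulfide isomerases, and -0.47 ± 0.28 for the membrane thioredoxin TMX1.

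Transcripts whose coding end spells KDEL, HDEL or RDEL numbered 29, of which 28 were tested. Their median log2 fold change was -0.12, 0 of them had an unadjusted p under 0.05, and 22 had an upper limit under 2-fold. For the 26 of at least 5 CPM the values ran from -0.47 in EOGT, an ER glycosyltransferase, to 0.09 in P3H1, a collagen prolyl hydroxylase. PRKCSH, the regulatory subunit of glucosidase II, had 471 and 455 CPM in labelled cells and 535 and 421 CPM in unlabelled cells, a log2 fold change of -0.04 ± 0.24. SERPINH1, the collagen chaperone HSP47, had 190 and 154 CPM in labelled cells and 179 and 179 CPM in unlabelled cells, a log2 fold change of -0.06 ± 0.25. Groups overlapped in both. PCMT1, a protein repair methyltransferase of the cytosol, also matched by an RDEL end and was counted with the rest.

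**Figure D2:**
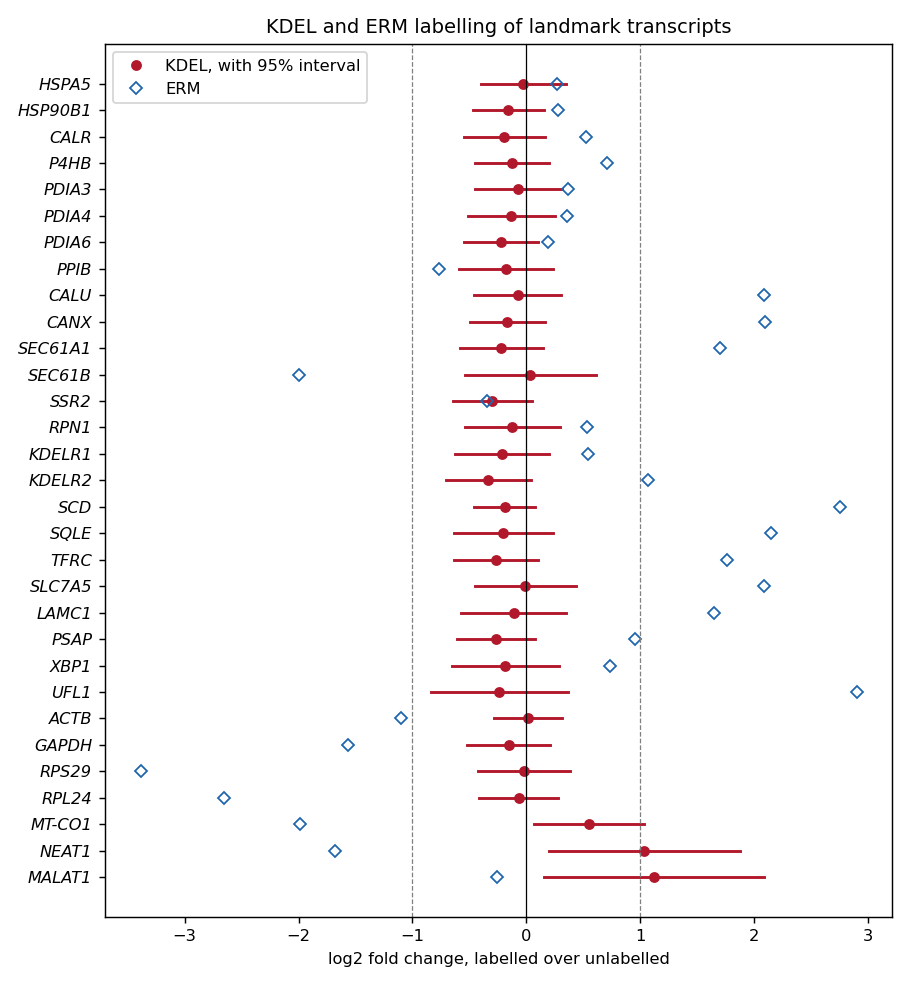
Log2 fold change, labelled over unlabelled (x axis), of 31 landmark transcripts (rows): red points and bars give KDEL with its 95% interval from the model of all 36 libraries, blue diamonds give the ERM value of the same gene, and dashed lines mark 2-fold. The upper ends of the KDEL bars of HSPA5 to GAPDH stay left of the right dashed line, and the ERM values of CANX, CALU, SCD, SQLE and UFL1 lie right of it.

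Translocation and glycosyl transfer genes build the channel and its attached enzymes. SEC61A1, the pore subunit, had 473 and 438 CPM in labelled cells and 562 and 498 CPM in unlabelled cells. Its log2 fold change was -0.22 ± 0.18 and its upper limit 1.11-fold. SEC61B, a small tail-anchored subunit of the channel, had 112 and 79.1 CPM in labelled cells and 103 and 83.0 CPM in unlabelled cells, and its upper limit of 1.53-fold was wider. SSR2, a subunit of the translocon-associated complex, had 272 and 237 CPM in labelled cells and 334 and 292 CPM in unlabelled cells, and its upper limit of 1.03-fold was among the tightest. RPN1, a ribophorin of the oligosaccharyl transferase, had an upper limit of 1.23-fold. Of the 40 genes tested 0 were called, the median was -0.14, and 34 had an upper limit under 2-fold. KRTCAP2, a subunit of the oligosaccharyl transferase, was highest at 0.56 ± 0.54. The oligosaccharyl transferase subunit TUSC3 was lowest at -0.40 ± 0.27 and the glucosyltransferase ALG8 next at -0.38 ± 0.31.

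Of the 63 genes of the Golgi and early secretory pathway that were tested, 0 were called, the median was -0.15, and 56 had an upper limit under 2-fold. The list includes the receptors that return KDEL-tailed proteins to the ER. KDELR1 had 331 and 267 CPM in labelled cells and 359 and 334 CPM in unlabelled cells, with a log2 fold change of -0.21 ± 0.20. KDELR2 had 227 and 224 CPM in labelled cells and 277 and 292 CPM in unlabelled cells, with a log2 fold change of -0.33 ± 0.18 and an upper limit of 1.03-fold. Both receptors were lower in each labelled library than in either unlabelled one. KDELR3, at 15.3 and 16.0 CPM in labelled cells and 17.1 and 12.7 CPM in unlabelled cells, was too low to be bounded below 4.39-fold. EXTL2, a glycosyltransferase of heparan sulfate, was highest among members of at least 20 CPM at 0.24 ± 0.80, and the mucin-type glycosyltransferase GALNT10 lowest at -0.38 ± 0.44.

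Secreted and matrix proteins were expressed at lower levels and were bounded less tightly. Of 74 tested, 0 were called, the median was -0.07, and 32 had an upper limit under 2-fold. LAMC1, a laminin chain of basement membranes, had 283 and 311 CPM in labelled cells and 359 and 282 CPM in unlabelled cells, with an upper limit of 1.28-fold. FN1, fibronectin, had 42.7 and 42.8 CPM in labelled cells and 55.3 and 39.7 CPM in unlabelled cells, with an upper limit of 1.72-fold. Among members that averaged 20 CPM or more, the latent TGF-beta binding proteins LTBP3 and LTBP4 were highest at 0.37 ± 0.59 and 0.34 ± 0.39, and the matricellular protein CYR61 was lowest at -0.50 ± 0.66. Without unlabelled library 1 the median of this list was 0.07, the 1 secretory list whose median changed sign when a library was left out.

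Lysosomal proteins also pass through the ER. Of 53 tested, 0 were called, the median was -0.15 and 41 had an upper limit under 2-fold. PSAP, the precursor of the saposins that assist sphingolipid breakdown, had 539 and 487 CPM in labelled cells and 636 and 597 CPM in unlabelled cells, with a log2 fold change of -0.27 ± 0.17 and an upper limit of 1.05-fold. At 20 CPM or more, the sulfatases SGSH and IDS were highest at 0.35 ± 0.33 and 0.34 ± 0.30, and the fucosidase FUCA1 was lowest at -0.51 ± 0.44. Of 95 plasma membrane proteins 0 were called, with a median of -0.12 and 70 upper limits under 2-fold. TFRC, the transferrin receptor, had 171 and 191 CPM in labelled cells and 231 and 203 CPM in unlabelled cells, and an upper limit of 1.07-fold. SLC7A5, an amino acid transporter, had 415 and 302 CPM in labelled cells and 359 and 361 CPM in unlabelled cells, and an upper limit of 1.35-fold. Of those at 20 CPM or more, the growth factor receptors FGFR4 and FGFR3 were highest at 0.32 ± 0.65 and 0.31 ± 0.27, and NRP2, a semaphorin co-receptor, was lowest at -0.79 ± 0.96. In NRP2 unlabelled library 1 stood apart, with 42.1 CPM against 10.5 CPM in unlabelled library 2 and 14.3 and 16.0 CPM in labelled cells.

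Sterol and lipid enzymes are membrane proteins of the ER itself. Of 58 tested, 0 were called, the median was -0.18 and 50 had an upper limit under 2-fold. SCD, the stearoyl-CoA desaturase, had 896 and 941 CPM in labelled cells and 1087 and 1007 CPM in unlabelled cells, with a log2 fold change of -0.19 ± 0.13 and an upper limit of 1.06-fold. Both labelled libraries lay under both unlabelled ones for SCD. SQLE, squalene epoxidase, had an upper limit of 1.18-fold. LSS, the lanosterol synthase, was highest at 0.26 ± 0.28, and INSIG2, which retains the sterol sensor in the ER, lowest at -0.46 ± 0.67.

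Over the 7 secretory lists together, 454 of 456 genes were tested. Of these, 346 had an upper limit under 2-fold and 238 under 1.5-fold, and 293 had both limits within 2-fold. The 431 that averaged 5 CPM or more included all 346, which is 80.3% of them beside 55.1% over all genes of at least 5 CPM. The 2 shares are not matched for level within that range. With the 4 KDEL libraries fitted alone, 432 of 451 had an upper limit under 2-fold and 387 under 1.5-fold. The fits estimate the spread from different libraries, and over all genes of at least 5 CPM the median SE was 0.42 in the model of 36 libraries. For the 431 secretory genes of at least 5 CPM it was 0.30 in that model. With the 4 KDEL libraries alone it was 0.18 over the 451 secretory genes fitted. Leaving out 1 KDEL library gave 292 to 330 genes under 2-fold in the model of 36 libraries.

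How tight a bound was depended on the level of the transcript. Of the secretory genes from 5 to under 20 CPM, 1 of 37 had an upper limit under 2-fold, and the median upper limit was 4.38-fold. From 20 to under 50 CPM it was 63 of 103 with a median of 1.86-fold, and from 50 to under 100 CPM 110 of 119 with a median of 1.49-fold. All 158 genes from 100 to under 500 CPM and all 14 above that were under 2-fold, with medians of 1.24-fold and 1.12-fold. Of the 23 under 5 CPM, 0 were. Over all genes under 5 CPM the share was 6.87%, with a median upper limit of 55.1-fold. That share counts genes with a fold change of 0, whose SE is 0 by the formula used. It is thus no measure of tight bounds. From 5 CPM up, the shares of secretory genes in these ranges were 2.70%, 61.2%, 92.4%, 100% and 100%. Over all genes the shares were 1.30%, 48.8%, 92.2%, 98.5% and 95.4%, so they were close to those of secretory genes from 50 to under 500 CPM. IDUA, a lysosomal iduronidase at 7.58 and 5.56 CPM in labelled cells and 4.04 and 3.51 CPM in unlabelled cells, had the least tight limit among secretory genes of at least 5 CPM, 13.9-fold. With the 4 KDEL libraries fitted alone, 34 of the 37 genes from 5 to under 20 CPM had an upper limit under 2-fold, with a median of 1.49-fold, and 5 of the 20 fitted under 5 CPM did. The bound of low transcripts thus depended on which libraries gave the estimate of spread.

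The direction of the medians needs its own scale. Of the 454 genes 116 were above 0, and the median was -0.14. At an unadjusted p under 0.05 the model of 36 libraries had 0 higher and 0 lower. The fit of the 4 KDEL libraries alone had 1 of 451 higher and 34 lower, with 0 called. Over all genes in that fit, 2.66% were higher and 1.62% lower. Counts of the 7 lists made up 5.59% and 5.53% of labelled libraries, against 6.27% and 5.90% of unlabelled libraries. The 16 unlabelled libraries of the other constructs held 4.61% to 5.73%, with a median of 5.09%, so both KDEL labelled libraries were inside that range and both KDEL unlabelled libraries were above it. Both labelled libraries lay above both unlabelled ones in 27 of the 454 genes, where 19.1% of all genes tested did so, and below them in 178, where 12% of all genes tested did so. With the unlabelled libraries of all 9 constructs as controls the median of the secretory genes was 0.08, under the 0.23 of all genes and above the 0.02 of genes of at least 5 CPM, and 338 secretory genes had an upper limit under 2-fold. In that setting 41 of the 454 were higher and 1 lower at an unadjusted p under 0.05, and 0 of them were called. Over all 22680 genes 3225 were higher at that p, and over the 11829 of at least 5 CPM 411 were, so the share of secretory genes was under the first background and above the second. The sign of the small median thus changed with the controls.

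**Figure D3:**
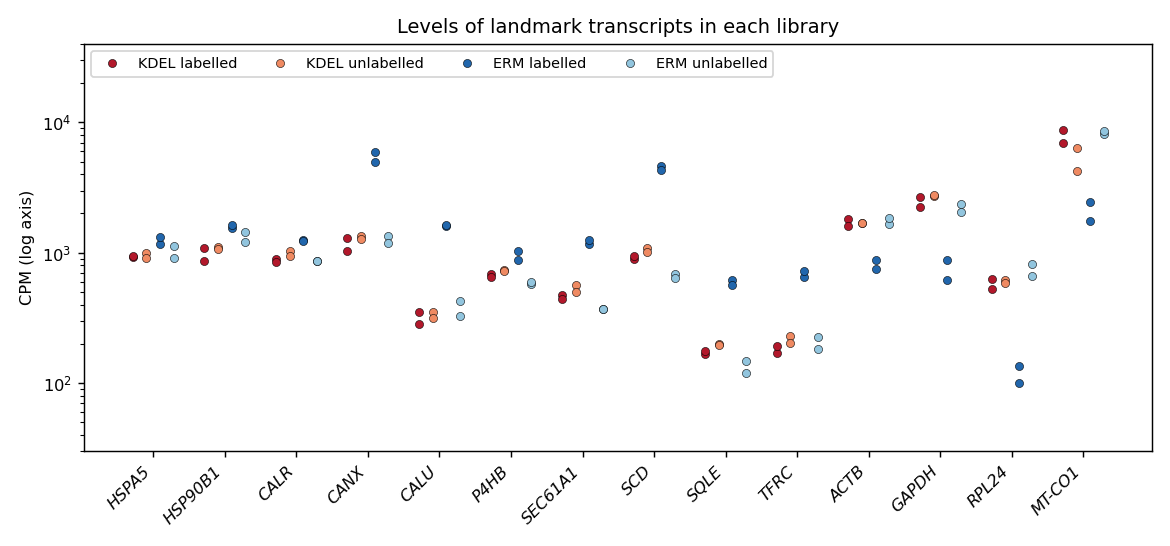
CPM on a log axis (y axis) of 14 landmark transcripts (x axis) in each library, with KDEL labelled, KDEL unlabelled, ERM labelled and ERM unlabelled libraries from left to right within a gene. The 2 red and 2 orange KDEL points of CANX, CALU, SCD and SQLE lie together, whereas the dark blue ERM points lie above the light blue ones.

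Set against labelling at the ER membrane, the lumenal construct differed in 1574 genes (6.94%). By the test of the difference between the labelling effects in the same edgeR model, 955 genes (4.21%) were higher and 619 (2.73%) lower with KDEL than with ERM at an adjusted p under 0.05. Of the 454 secretory genes 149 were lower with KDEL and 8 were higher. At the ER membrane itself 192 of the 454 were called higher and 19 lower, with a median log2 fold change of 0.93. The count share of the lists was 11.4% and 11.7% in ERM labelled libraries, against 5.28% and 5.35% in ERM unlabelled libraries. ERM labelled library 1 lacked a count for 4.90% of the genes of at least 5 CPM, and KDEL libraries for at most 0.0845%. Without ERM labelled library 2 the difference counted 2385 genes.

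CANX had 5966 and 4936 CPM in ERM labelled libraries, against 1347 and 1197 CPM in ERM unlabelled libraries. The difference of its labelling effect, KDEL minus ERM, was -2.27 ± 0.23 on the log2 scale with an adjusted p of 5.8e-08 by edgeR. SCD had 4643 and 4326 CPM in ERM labelled libraries, against 683 and 642 CPM in ERM unlabelled libraries, and a difference of -2.95 ± 0.19. Every ERM labelled value of both genes was above every KDEL value. The differences of CALU, SEC61A1, SQLE, TFRC and SLC7A5 ran from -2.35 to -1.92, each with an adjusted p under the threshold. KDELR2 differed by -1.41, PSAP by -1.22 and P4HB by -0.83.

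The soluble chaperones differed less. HSPA5 had 1159 and 1311 CPM in ERM labelled libraries and 1135 and 913 CPM in ERM unlabelled libraries, and its difference of -0.29 ± 0.26 was not called (adjusted p of 0.68 by edgeR). HSP90B1 differed by -0.44 ± 0.22 and CALR by -0.72 ± 0.25, with adjusted p-values of 0.30 and 0.084 by edgeR. For those genes the KDEL upper limits say more than the difference does. SEC61B went the other way: it had 25.9 and 18.8 CPM in ERM labelled libraries and 79.9 and 98.2 CPM in ERM unlabelled libraries, and its difference was 2.03 ± 0.41. Translocon and glycosyl transfer genes were mixed in this respect, with 13 lower and 7 higher with KDEL than with ERM.

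The largest negative differences with a count in every group were in LNPEP, a membrane aminopeptidase, at -3.25 ± 0.58, ERN1, the ER stress sensor IRE1, at -3.19 ± 0.86, UFL1, a ligase of the ubiquitin-like modifier UFM1 that sits at the ER membrane, at -3.14 ± 0.43, and METTL7A, a membrane methyltransferase, at -2.98 ± 0.47. UFL1 had 32.4 and 47.9 CPM in KDEL labelled libraries and 46.5 and 48.0 CPM in KDEL unlabelled libraries. It had 314 and 273 CPM in ERM labelled libraries and 32.8 and 45.8 CPM in ERM unlabelled libraries. IGIP also differed but had no count in ERM unlabelled libraries, so no fold is given. The 5 genes furthest above ERM, VAMP8, C2orf76, TMSB4XP8, CCDC74A and DGKA, had no count in either ERM labelled library, while the 2 KDEL labelled libraries together held 777 counts of VAMP8 and 933 of CCDC74A. The thin gene coverage of ERM labelled library 1, given above, moves with these zeros, and its part in them was not tested.

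**Figure D4:**
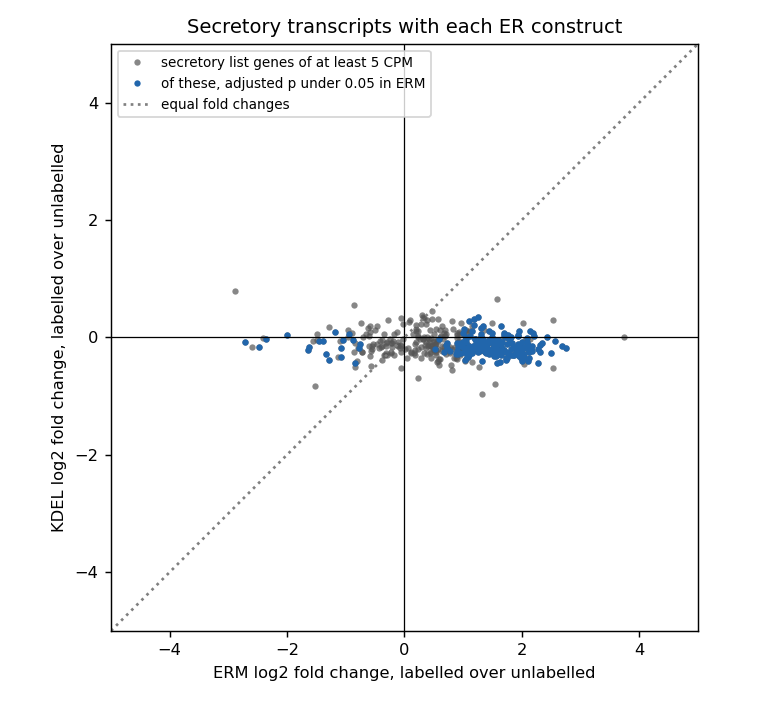
Log2 fold change, labelled over unlabelled, with KDEL (y axis) and with ERM (x axis) for the 431 secretory list genes of at least 5 CPM; blue marks the 211 past the threshold in ERM in either direction and the dotted line marks equal values. The points lie along the horizontal axis, with KDEL values from -0.96 to 0.80.

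The 1193 genes called higher with ERM form a list chosen by the ERM contrast of the same model, which shares no library with the KDEL contrast. Their ERM values are a description, since those values chose the list. Their median log2 fold change was -0.10 with KDEL and 1.31 with ERM, and 318 of them were above 0 with KDEL. With KDEL 0 were called, and 1 was higher at an unadjusted p under 0.05. An upper limit under 2-fold was reached by 1121 and one under 1.5-fold by 780. The KDEL upper limit was under the ERM value of the same gene in 1186 of the 1193, and in 192 of the 192 secretory genes among them, a count that the choice of genes with high ERM values favours.

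Set against the cytosol, the lumenal construct differed in 115 genes (0.507%). By edgeR 102 genes (0.45%) were higher and 13 (0.0573%) lower with KDEL than with NES at an adjusted p under 0.05. This count was 1207 without NES unlabelled library 2, 167 without NES labelled library 1 and 67 without NES labelled library 2, and it was 0 with those 8 libraries fitted alone. NES unlabelled library 1 lacked a count for 3.31% of the genes of at least 5 CPM. Of the 454 secretory genes 1 was called, HSP90B1, which was higher by 0.90 ± 0.22 with an adjusted p of 0.046 by edgeR. It had 654 and 559 CPM in NES labelled libraries and 1365 and 1159 CPM in NES unlabelled libraries, where it fell. Of the 79 cytosolic ribosomal protein genes 23 were higher with KDEL than with NES, RPL24 by 1.31 ± 0.24. The lower genes included ARCN1, a coat protein of Golgi vesicles made in the cytosol, by -1.37 ± 0.27, and TLN1, the adhesion adaptor talin, by -1.39 ± 0.32. DPYSL5, BCL7A and SMG6 were lower by -1.53, -1.56 and -1.62. In each of these 5 genes the value with KDEL itself was between -0.37 and 0.05.

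Transcripts of proteins that do not enter the ER gave the background of the same libraries. ACTB, cytoplasmic actin, had 1820 and 1597 CPM in labelled cells and 1679 and 1694 CPM in unlabelled cells, with an upper limit of 1.25-fold. The ribosomal protein gene RPS29 had 364 and 292 CPM in labelled cells and 350 and 314 CPM in unlabelled cells, with an upper limit of 1.31-fold. Groups overlapped in both. In the fit of the 4 KDEL libraries alone, 0 of 60 soluble cytosolic genes were higher and 5 lower at an unadjusted p under 0.05. For the 79 ribosomal protein genes it was 1 higher and 6 lower. Over all genes in that fit 2.66% were higher and 1.62% lower, so both lists were above the share of lower genes. The 60 soluble cytosolic proteins had a median of -0.11 and the 79 ribosomal proteins one of -0.03, and 0 of either list were called. The secretory median of -0.14 was thus near that of soluble cytosolic transcripts. Of the 30 genes of the unfolded protein response, the programme that raises ER chaperones under folding stress, 0 were called and the median was -0.02. XBP1, its transcription factor, had 176 and 176 CPM in labelled cells and 189 and 211 CPM in unlabelled cells. The 39 oxidative stress and immediate early genes had a median of 0.09, with 0 called.

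**Figure D5:**
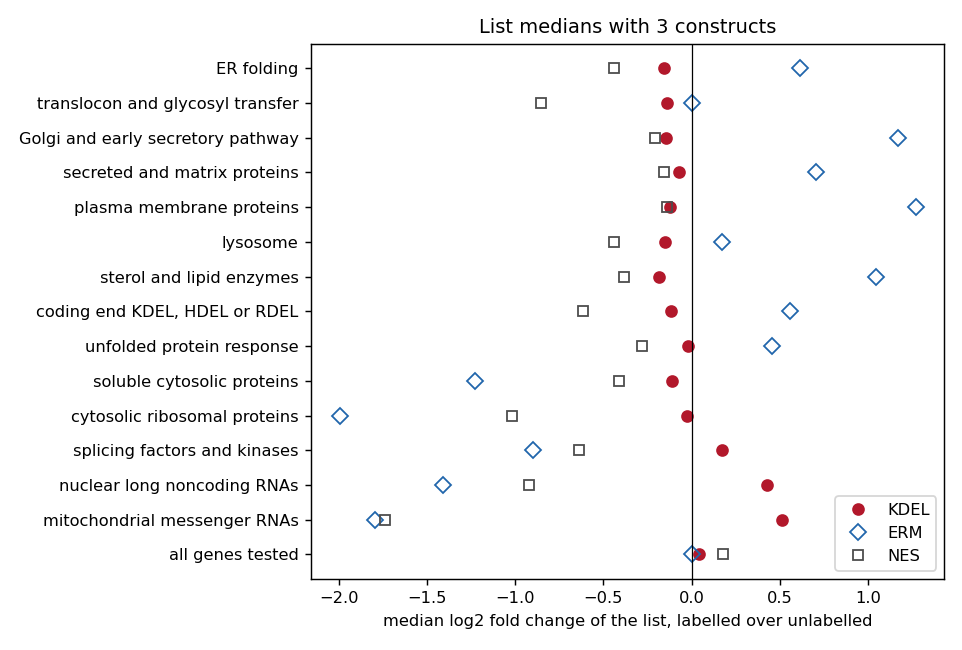
Median log2 fold change, labelled over unlabelled (x axis), of each gene list (rows) with KDEL, ERM and NES. KDEL medians of secretory lists lie between -0.18 and -0.07, and mitochondrial messenger RNAs and nuclear noncoding RNAs have the highest KDEL medians at 0.51 and 0.43.

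Of the list medians plotted, the highest with KDEL were those of mitochondrial messenger RNAs and nuclear noncoding RNAs. All 13 mitochondrial messenger RNAs had values above 0, with a median of 0.51, where 12368 of all 22680 genes were above 0. Of the 13, 0 were called and 5 were higher at an unadjusted p under 0.05, beside 0.172% of all genes. In the fit of the 4 KDEL libraries alone 0 were called and 9 were higher at that p, beside 2.66% of all genes. MT-CO1, a subunit of cytochrome c oxidase, had 6934 and 8676 CPM in labelled cells and 4268 and 6369 CPM in unlabelled cells, a log2 fold change of 0.55 ± 0.24. MT-ND6, a complex I subunit encoded on the other strand, had 97.6 and 235 CPM in labelled cells and 75.6 and 127 CPM in unlabelled cells, a log2 fold change of 0.72 ± 0.32. Groups did not overlap in MT-CO1 and overlapped in MT-ND6. The median of the list was 0.97 without unlabelled library 2 and 0.12 without unlabelled library 1, and 0.13 with the controls of all 9 constructs. Counts of mitochondrial genes made up 3.31% and 4.35% of labelled libraries and 2.12% and 3.46% of unlabelled libraries, within the 1.65% to 8.47% of the other 16 unlabelled libraries.

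Nuclear long noncoding RNAs had a median of 0.43 over 27 tested, with 26 above 0, 0 called and 2 higher at an unadjusted p under 0.05 (0.172% over all genes). In the fit of the 4 KDEL libraries alone 11 of 26 were higher at that p, with 0 called (2.66% over all genes). NEAT1, the scaffold of paraspeckles, had 60.8 and 68.1 CPM in labelled cells and 23.9 and 38.7 CPM in unlabelled cells, a log2 fold change of 1.04 ± 0.41. MALAT1, a speckle RNA, had 40.5 and 46.0 CPM in labelled cells and 14.3 and 25.4 CPM in unlabelled cells, a log2 fold change of 1.12 ± 0.48. In both genes each labelled library was above each unlabelled one. GAS5, a snoRNA host transcript, had 154 and 181 CPM in labelled cells and 122 and 112 CPM in unlabelled cells, a log2 fold change of 0.52 ± 0.27. Splicing factors and kinases had a median of 0.17 over 44 genes, 4 of which were higher at an unadjusted p under 0.05 (0.172% over all genes), CCNL2 and DDX39B among them. With the KDEL libraries alone 12 of the 44 were higher and 1 lower at that p (2.66% and 1.62% over all genes).

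The 631 genes (2.78%) called higher with the nuclear construct, a list chosen after values of the KDEL libraries had been seen, had a KDEL median of 0.19. Of these 506 were above 0 and 30 were higher at an unadjusted p under 0.05 (0.172% over all genes), with 0 called. With the KDEL libraries alone 148 of the 631 were higher and 1 lower at that p, with 0 called (2.66% and 1.62% over all genes). The 548 genes (2.42%) called lower with the nuclear construct had a KDEL median of -0.09. KDEL and NLS share no library. Across genes of at least 5 CPM the fold changes of the constructs had a Pearson's r of 0.37 and a Spearman's rho of 0.30, and those of KDEL and ERM -0.16 and -0.15, as descriptions across genes. Leaving out each KDEL library in turn gave medians of 0.16 to 0.22 for the genes higher with NLS. For the genes higher with ERM it gave medians from -0.18 to -0.05. Whether nuclear RNA or unequal recovery takes part in these values was not tested.

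Genes with the most extreme KDEL values and no overlap between the groups were low. AOC2, an amine oxidase, had 5.11 and 2.78 CPM in labelled cells and 1.41 and 0 CPM in unlabelled cells, and the noncoding RNA MIR4453HG had 2.23 and 3.44 CPM in labelled cells and 1.34 and 0 CPM in unlabelled cells. MMP25-AS1, TNFRSF13C and SLC26A10 completed the highest 5. The lowest 5 were GPR137B at 8.18 and 9.80 CPM in labelled cells and 30.3 and 14.3 CPM in unlabelled cells, then DUSP5, ZNF624, LTK and AHR. The log2 fold change was 2.49 ± 2.39 in AOC2 and -1.31 ± 1.00 in GPR137B. Adjusted p-values of all of them were 1 by edgeR.

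In the authors' deposited table, 27595 genes had a p-value for KDEL and all of these lay between 0.9998 and 1. The median log2 fold change of the 454 secretory genes in the authors' deposited table was 0.018, above the -0.0395 of genes of at least 5 CPM there. In the fit made here the secretory median was below that of such genes. For HSPA5 the authors' deposited table gives 0.20, for CALR 0.19, for CANX -0.13 and for SCD -0.01.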

How the data were processed

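The deposited counts are raw whole-number reads per gene, and per the submitters' processing notes they rest on GRCh38 and on STAR, Trimmomatic, SAMtools, bedtools, HTSeq and DESeq2, whose roles and settings are not given in the sources used here. The labels' protocols describe a stranded poly(A) kit. The authors' deposited log2 fold changes and p-values were only copied; the headers do not say whether those p-values are adjusted or which controls entered.

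Of 60675 gene identifiers, 57055 took names from GENCODE 29. Counts of 36 libraries in 18 groups were fitted in R 4.3.3 with edgeR 4.0.16 (TMM scaling, default filter on low counts, quasi-likelihood F test, Benjamini-Hochberg adjustment over all genes tested). SEs were obtained by dividing the size of each log2 fold change by the root of its F statistic. The 95% interval is the fold change ± the t quantile times the SE. A fold change of 0 therefore gives an SE of 0, and such a gene is counted under each limit without being bounded. Intervals of that model draw on the spread between the 2 libraries of all 18 groups, and not on the KDEL groups alone. Between replicates the median absolute log2 ratio was 0.14 in NES labelled and 0.58 in NES unlabelled libraries, beside 0.21 and 0.20 with KDEL. Comparisons of 2 against 2 libraries allow no exact permutation p under 0.333. CPM are TMM-scaled. Log2 ratios between libraries used a pseudocount of 0.5 CPM. Replicates were not copies: the chi-square per gene was 41.4 between labelled and 44.0 between unlabelled libraries. The method was tested on simulated counts.

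Genes named by rule are landmarks of each list, the 5 highest and lowest of at least 5 CPM without overlap, the 2 highest and lowest of each secretory list of at least 20 CPM, and the 5 largest called differences from ERM and NES each way; others, such as XIST and PRKCSH, were named after their values were seen, and not every gene the rule allows is described: 1 landmark is not reported here. Gene lists and members were chosen with earlier results of these data known. Retention tails were read from codons of GENCODE 29 because no protein table was used, so looser tails were left out. Overlapping and near-identical genes stand as counted. Results were recomputed with DESeq2 1.42.0, with RLE scaling, unfiltered, on the compared libraries by themselves, with a replicate block, with the controls of all 9 constructs, with a fold threshold, on genes of at least 5 CPM, and without each library; a lone library left in a group was assumed as variable as other groups. Figures and descriptions used Python 3.11.15, numpy 2.4.6, pandas 2.3.3 and matplotlib 3.10.9.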

Additional observations from a re-analysis of the deposited data

Results flagged for a closer look

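The effect of labelling differed between the lumenal construct and another construct, by the test of the difference itself, in 1574 genes against ERM and 115 against NES. Of the genes named by rule and reported here, 35 differed from ERM with more than 3 counts in each group. Differences are log2, KDEL minus the other construct.

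Mostly genes of secreted or membrane proteins were lower with KDEL than with ERM: LNPEP by -3.25, ERN1 by -3.19, UFL1 by -3.14, METTL7A by -2.98, SCD by -2.95, TMED7 by -2.48, SQLE by -2.35, CANX by -2.27, CALU by -2.17, VCAN by -2.12, GALNT10 by -2.11, SLC7A5 by -2.09, GM2A by -2.04, TFRC by -2.03, ELOVL2 by -2.0, SEC61A1 by -1.92, LAMC1 by -1.76, KDELR2 by -1.41, PSAP by -1.22 and P4HB by -0.83. SMG6 and DPYSL5, which encode cytosolic or nuclear proteins, were also lower by -1.21 and -1.11. Higher with KDEL than with ERM were MT-ATP8 by 3.87, RPS29 by 3.37, PABPC1L by 3.33, GOLGA8B by 3.20, GAS5 by 2.95, NEAT1 by 2.72, MT-ND3 by 2.69, RPL24 by 2.59, MT-CO1 by 2.54, SEC61B by 2.03, GAPDH by 1.41, TUBA1B by 1.33 and ACTB by 1.12.

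Against NES, 16 named genes differed. Higher with KDEL were GOLGA8B by 3.24, MT-ATP8 by 3.10, PABPC1L by 2.75, MT-ND3 by 2.70, MT-ND6 by 2.66, NEAT1 by 2.41, MT-CO1 by 2.22, GAS5 by 2.22, RPL24 by 1.31, RPS29 by 1.24 and HSP90B1 by 0.90. Lower with KDEL were SMG6 by -1.62, BCL7A by -1.56, DPYSL5 by -1.53, TLN1 by -1.39 and ARCN1 by -1.37. Groups of 2 libraries were not searched for single outlying samples.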

How the results depend on the processing

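The count of 0 called KDEL genes stayed 0 with DESeq2, RLE size factors, the KDEL libraries alone, the fold threshold and genes of at least 5 CPM. It was 10 with no filter (8 of them mitochondrial messenger RNAs), 2 with a replicate block and 1 with the controls of all 9 constructs, and 1 to 16 when a library was left out, with 0 secretory genes in each of these settings. Same-numbered KDEL libraries did not deviate together across genes of at least 5 CPM (correlation of -0.033), which cannot exclude a pairing in some genes. Mitochondrial messenger RNAs made up 3.10% and 4.05% of labelled libraries 1 and 2, and 1.93% and 3.20% of unlabelled libraries 1 and 2. With a replicate block all 13 were higher at an unadjusted p under 0.05 by edgeR, where 69 of all 22680 genes were. Whether the numbers pair the libraries was not tested further. The difference from ERM counted 2447 genes with DESeq2, 2956 with the controls of all 9 constructs, 1772 with a replicate block, and 1199 to 2385 with a library left out. The difference from NES counted 541 genes with DESeq2, 214 with no filter, 0 with only those libraries, 259 with a replicate block, 527 with the controls of all 9 constructs, and 67 to 1207 with a library left out. Secretory genes with an upper limit under 2-fold numbered 338 to 432 under the other settings, 348 with a replicate block, and 292 to 330 with a library left out. Of 930 values of the 93 named genes under these settings, 9 became called, all of MT-CO1, MT-ND6, MT-ATP8 and MT-ND3. The causes of these changes were not tested.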
